A study of Saccharomyces cerevisiae with 6 samples.

Results

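The core, variant and linker histone genes of budding yeast were examined by the gene symbols of their array probes in cultures exposed to paraquat. The set holds 10 genes: HTA1, HTA2, HTB1 and HTB2 for H2A and H2B, HHT1, HHT2, HHF1 and HHF2 for H3 and H4, HTZ1 for the variant H2A.Z and HHO1 for the linker histone H1. The annotation used here gave 9 of them 1 probe each and HTA2 none, so 9 genes were measured among 5693 array features with a value on every array, from a table of 6912 probes. HTA2 was not analysed here.

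Strain S288C was grown in YPD at 25 °C to exponential phase, and the treated cultures then received 35 ppm paraquat (methyl viologen, a redox cycler that produces superoxide in cells) for 2 h. Control cultures were grown for the same 2 h without any addition. Purified mRNA of treated cultures was labelled with Cy5 and that of control cultures with Cy3, and both were hybridised together on 3 arrays, each with its own biological sample. A scan at high laser power and a scan at low laser power of the same array were averaged, so n is 3 arrays throughout and the 1 contrast is treated over control. Values are log ratios, read here as log2 of treated over control. Neither the base nor the direction is stated in the sources used here, the order of the channels makes this direction likely, and with the opposite direction every sign below would turn. The dyes were not swapped, so dye and treatment cannot be told apart.

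Yeast packs its DNA around octamers of H2A, H2B, H3 and H4. Each core histone has a pair of gene copies, and these genes lie as divergently transcribed neighbours, an H2A gene beside an H2B gene and an H3 gene beside an H4 gene. Their transcription peaks in S phase, when new DNA needs nucleosomes. The HIR complex represses every pair but HTA2-HTB2 outside S phase, and Spt10 and Spt21 are activators of histone genes. Unlike most animal histone messages, yeast histone mRNAs carry poly(A) tails, so mRNA purified on oligo(dT) contains them. In a bulk culture, a different share of cells in S phase and a different amount of histone mRNA per cell cannot be told apart.

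No histone gene passed the test after paraquat, although 8 of the 9 means lay above 0. HTB1, HTA1 and HTZ1 stood highest, at 1.40-fold, 1.39-fold and 1.35-fold, and HHT2 was the 1 gene with a mean below 0. The limma adjusted p (Benjamini-Hochberg over 5693 features, threshold 0.05) was between 0.404 for HTB1 and 0.969 for HHO1. Among all features limma called 2 higher (0.0351%), the glutathione peroxidase gene GPX2 and the cell wall mannoprotein gene FIT2, and 0 lower (0%). At an unadjusted p under 0.05 limma placed 3 of 9 histone genes higher, where 5.48% of all features were, and 0 lower, where 5.29% were. The mean lay above 0 for 49.2% of all features. The histone genes were chosen with earlier results of these data known, so these shares are a description and support nothing by themselves.

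**Figure D1:**
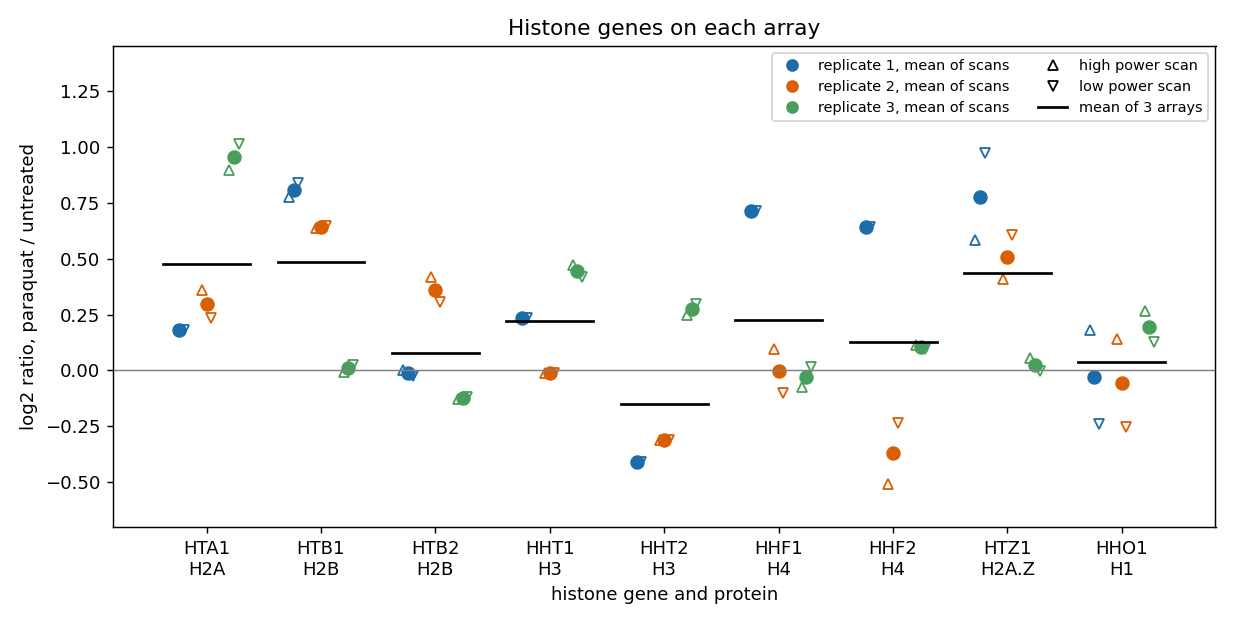
Log2 ratio of paraquat over untreated (y axis) for each measured histone gene (x axis), with 1 filled point per array (n = 3), open triangles for the high and low power scan behind it and a black line at the mean. HTA1, HTB1 and HTZ1 lie above 0 on every array, though HTB1 and HTZ1 only just on replicate 3 (0.0094 and 0.026).

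HTA1 (YDR225W, chromosome IV), 1 of the 2 genes for H2A, had log2 ratios of 0.18, 0.30 and 0.95 on replicates 1, 2 and 3. Replicate 3 was far above the others, and there HTA1 stood at the 99.2nd percentile of all features, against the 66.4th on replicate 1. Its mean was 0.48 ± 0.42 (SD, n = 3 arrays), with a limma 95% interval of 0.05 to 0.91 and a limma adjusted p of 0.409. Without replicate 3 the mean was 0.24.

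HTB1 (YDR224C, chromosome IV), the H2B gene next to HTA1, had log2 ratios of 0.81, 0.64 and 0.0094 on replicates 1, 2 and 3. Here replicates 1 and 2 were high, at the 95.9th and 96.0th percentile, and replicate 3 was near 0. The mean of 0.49 ± 0.42 (SD, n = 3 arrays) had a limma 95% interval of 0.05 to 0.92 and a limma adjusted p of 0.404. Without replicate 1 it was 0.33, and 0.29 with an additive trend by probe number (taken to reflect array position) taken out. The 2 scans of each array differed by at most 0.063 for this probe, less than the arrays did.

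HTB2 (YBL002W, chromosome II), the other H2B gene and the neighbour of the unmeasured HTA2, was at -0.011, 0.36 and -0.12 on replicates 1, 2 and 3. Only replicate 2 was above 0. Its mean was 0.08 ± 0.25 (SD, n = 3 arrays; limma adjusted p = 0.941), and it turned to -0.07 without replicate 2.

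The means of the H3 genes differed in sign, while among the arrays their signs differed on replicate 1 alone. HHT1 (YBR010W, chromosome II) was at 0.23, -0.012 and 0.44 on replicates 1, 2 and 3, high on replicates 1 and 3, with a mean of 0.22 ± 0.23 (SD, n = 3 arrays; limma adjusted p = 0.744). HHT2 (YNL031C, chromosome XIV) was at -0.41, -0.31 and 0.27, low on replicates 1 and 2, with a mean of -0.15 ± 0.37 (SD, n = 3 arrays; limma adjusted p = 0.855). Both genes encode the same H3 protein. The mean of HHT1 was 0.11 without replicate 3, 0.34 without replicate 2 and 0.0372 with the probe number trend taken out. That of HHT2 was -0.0184 without replicate 1, -0.0673 without replicate 2 and -0.36 without replicate 3.

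The H4 genes were high on replicate 1. HHF1 (YBR009C, chromosome II), the neighbour of HHT1, was at 0.71, -0.00039 and -0.031 on replicates 1, 2 and 3, so that its mean of 0.23 ± 0.42 (SD, n = 3 arrays; limma adjusted p = 0.756) came from replicate 1. Without that array it was -0.0155, and with the probe number trend taken out 0.0408. HHF2 (YNL030W, chromosome XIV), the neighbour of HHT2, was at 0.64, -0.37 and 0.11 and had the widest spread of the 9 genes, with a mean of 0.13 ± 0.51 (SD, n = 3 arrays; limma adjusted p = 0.888), or -0.13 without replicate 1. Both copies encode the same H4 protein. On replicate 1 their values rested on the low power scan alone.

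HTZ1 (YOL012C, chromosome XV) encodes H2A.Z, which the SWR1 complex places in nucleosomes near promoters. Its log2 ratios of 0.78, 0.51 and 0.026 on replicates 1, 2 and 3 were high on the same arrays as those of HTB1. The mean was 0.44 ± 0.38 (SD, n = 3 arrays), with a limma 95% interval of 0.01 to 0.86 and a limma adjusted p of 0.455. It was 0.27 without replicate 1, 0.35 on high power scans alone and 0.53 on low power scans alone. The high power scans gave 0.58, 0.41 and 0.054 on replicates 1, 2 and 3, and the low power scans 0.97, 0.61 and -0.0018.

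HHO1 (YPL127C, chromosome XVI), the linker histone gene, varied least between arrays, at -0.031, -0.055 and 0.20 on replicates 1, 2 and 3, with a mean of 0.04 ± 0.14 (SD, n = 3 arrays; limma adjusted p = 0.969). Its scans disagreed more than its arrays did. On replicate 1 the high power scan gave 0.18 and the low power scan -0.24, and on replicate 2 they gave 0.14 and -0.25, so that the sign depended on the scan.

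The scans set the histone probes apart from most others on the array. All 9 had a low power value on every array, against 1978 of 5693 features (34.7%). On replicate 1, 5 of the 9 (HTA1, HHT1, HHT2, HHF1 and HHF2) had a low power value and no high power value, against 139 of all features (2.44%). Per the labels, the low power scan was made to rescue spots brighter than the scanning range, and whether these 5 spots were among those was not tested. On replicates 2 and 3 all 9 had values in both scans. CSE4, the gene of the centromeric H3 variant, had a high power value on every array but lacked a low power value on at least 1. It was at 0.21, -0.056 and 0.53 on replicates 1, 2 and 3, with a mean of 0.23 ± 0.29 (SD, n = 3 arrays; limma adjusted p = 0.742).

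**Figure D2:**
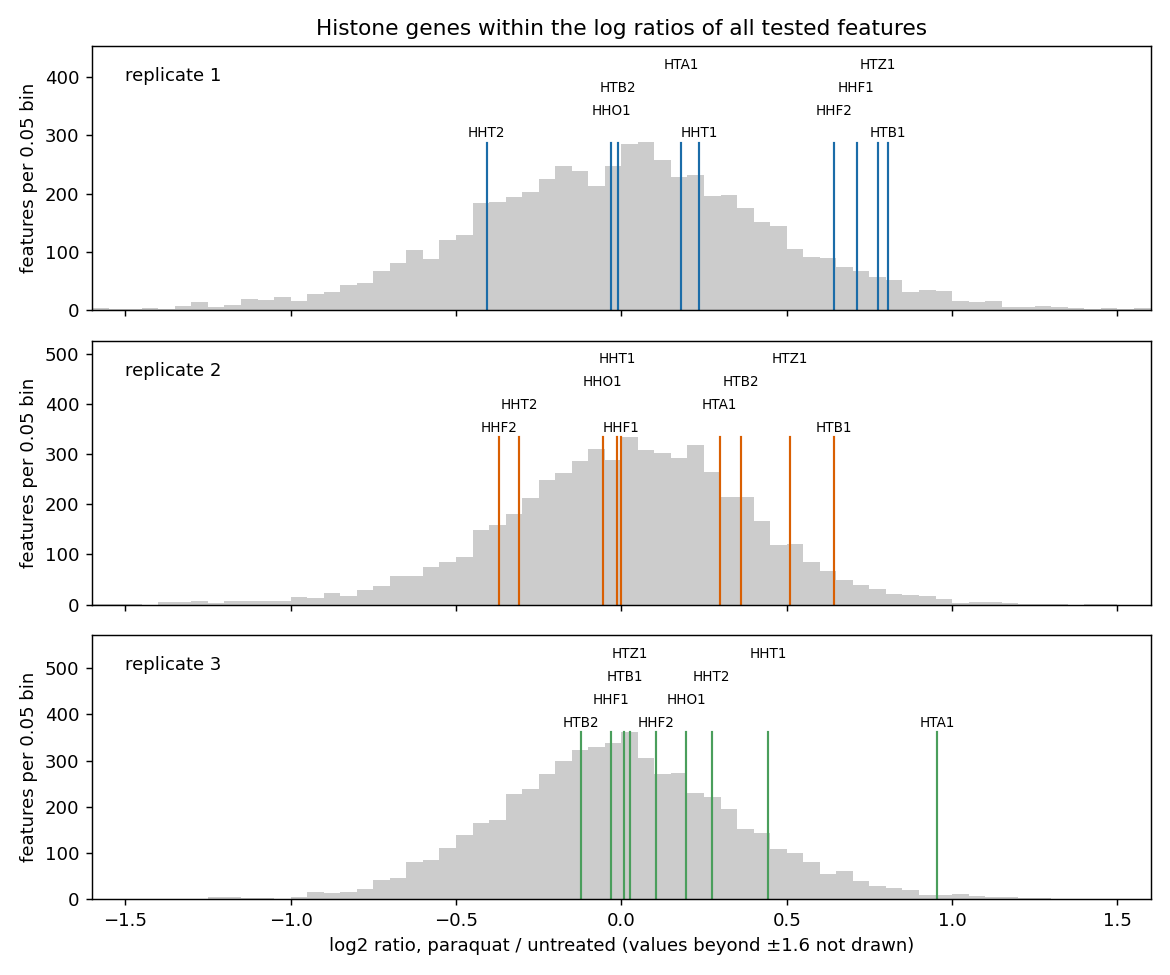
Number of features per bin of 0.05 (y axis) over the log2 ratio of paraquat over untreated (x axis) on each array, in grey, with a coloured line at each measured histone gene. The histone genes are spread over much of the distribution on every array, from -0.41 to 0.81 on replicate 1, from -0.37 to 0.64 on replicate 2 and from -0.12 to 0.95 on replicate 3.

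Within an array the histone genes varied nearly as much as unrelated features. Their standard deviation was 0.43, 0.35 and 0.33 on replicates 1, 2 and 3, against 0.48, 0.39 and 0.36 over all features. Their medians were 0.23, -0.00039 and 0.11, and 6, 4 and 7 of 9 lay above 0, against 2882, 3024 and 2733 of 5693 features. HTB1 was the highest member on replicates 1 and 2, and HTA1 on replicate 3. Above 0 on all 3 arrays were 3 of 9 histone genes (HTA1, HTB1 and HTZ1), against 16.0% of all features. Below 0 on all 3 arrays were 0 of 9, against 16.0%.

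Divergently transcribed neighbours had different log ratios, and which of the pair was higher changed with the array. HTA1 minus HTB1 was -0.63, -0.35 and 0.94 on replicates 1, 2 and 3, so the H2A gene was the lower of the pair on replicates 1 and 2 and far the higher on replicate 3. HHT1 minus HHF1 was -0.48, -0.012 and 0.47, likewise with opposite signs on replicates 1 and 3. HHT2 minus HHF2 was -1.05, 0.061 and 0.17, where replicate 1 alone held a wide gap. These differences are given as values and were not tested.

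**Figure D3:**
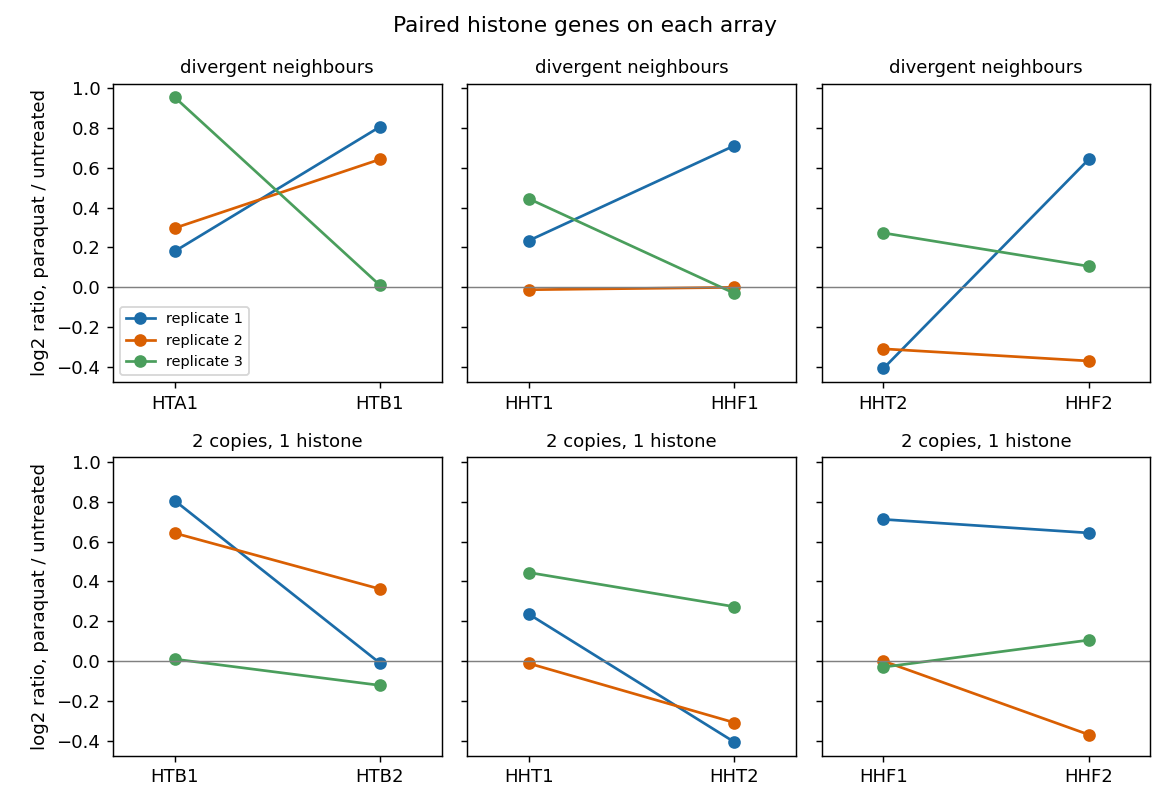
Log2 ratio of paraquat over untreated (y axis) of paired histone genes (x axis), with 1 line per array. The upper panels join divergently transcribed neighbours, and lines of different arrays cross in each of these panels. The lower panels join the copies for H2B, H3 and H4.

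Among copies that encode 1 histone, those for H2B and H3 kept 1 order on every array. HTB1 was above HTB2 on all 3 arrays, by 0.82, 0.28 and 0.13 on replicates 1, 2 and 3 (mean 0.41 ± 0.36, SD, n = 3 arrays). HHT1 was above HHT2 on all 3 arrays, by 0.64, 0.30 and 0.17 (mean 0.37 ± 0.24). HHF1 minus HHF2 was 0.068, 0.37 and -0.14, with no steady sign. A sign-flip test on 3 arrays cannot reach an exact p under 0.25, so these orders were not tested. With the probe number trend taken out the means were 0.29 for HTB1 and -0.0155 for HTB2. Those of HHT1 and HHT2 were then 0.0372 and -0.14. The coding sequences of these copies are alike and probe sequences were not used here, so signal shared between copies was not tested.

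Grouped by dimer, the H2A and H2B genes (3 measured) had a median of 0.18 on replicate 1, 0.36 on replicate 2 and 0.0094 on replicate 3, and the H3 and H4 genes (4 measured) of 0.44, -0.16 and 0.19. The H2A-H2B median was lower on replicates 1 and 3 and higher on replicate 2. The difference averaged 0.03 ± 0.43 (SD, n = 3 arrays), far less than its spread.

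By mean log2 ratio the order ran HTB1, HTA1, HTZ1, HHF1, HHT1, HHF2, HTB2, HHO1 and HHT2. The widest step, between HTZ1 and HHF1, was 0.21, less than the SD of either (0.38 and 0.42). Every other step was also less than the SD of both its genes, except that from HHO1 to HHT2, which at 0.18 was above the SD of HHO1 (0.14) and below that of HHT2 (0.37). With the probe number trend taken out the order changed. HTZ1 (0.42) and HTA1 (0.40) then stood above HTB1 (0.29). HHF2 (0.25) and HHO1 (0.18) rose above HHF1 (0.0408) and HHT1 (0.0372). Over the 3 arrays the closest members were HTB1 and HTZ1, at a Euclidean distance of 0.138, and the farthest were HTB1 and HHT2, at 1.56. These distances rest on 3 points each and are given as a description.

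The genes outside the set whose 3 values lay closest to the median core histone profile were HST4, a histone deacetylase gene of the sirtuin family, at a Euclidean distance of 0.0306, SFB2, a COPII coat gene, at 0.0418, YDL038C at 0.0445, YMR051C at 0.0559 and EFM3, a methyltransferase gene, at 0.0621. HST4 was at 0.22, 0.020 and 0.089 on replicates 1, 2 and 3. That median profile is close to 0, and the members themselves were far from it. HTA1 lay at 0.901, with 4147 other named features nearer to it than HTA1, and the nearest member, HHO1, lay at 0.286 with 436 nearer.

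In each list of other chromatin genes more means lay below than above 0, as they did over all features (2890 below and 2803 above), and no gene of these lists passed limma over all features. The 12 genes that regulate histone transcription had a median of -0.04, with 4 means above and 8 below 0, where the median of all features was -0.0065. SWI6 (-0.27) and SWI4 (-0.25), subunits of the G1 transcription factor SBF, were lowest, and the chaperone gene ASF1 (0.21) and the HIR subunit gene HIR1 (0.14) were highest. HIR1 was at 0.11, 0.097 and 0.21 on replicates 1, 2 and 3. The other HIR subunit genes HIR2, HIR3 and HPC2 were at -0.03, -0.10 and 0.04. The activator genes SPT10 and SPT21 were at -0.04 and 0.07, and the chaperone gene RTT106 was at -0.12.

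Of 12 histone chaperone genes 5 means lay above and 7 below 0, with a median of -0.10. At an unadjusted p under 0.05 limma placed 2 lower, VPS75 and NAP1, where 5.29% of all features were lower. VPS75, whose product partners the acetyltransferase Rtt109, was at -1.55, 0.28 and -0.33 on replicates 1, 2 and 3, so that 1 array carried its mean of -0.53 ± 0.93 (SD, n = 3 arrays; limma adjusted p = 0.463). NAP1, a chaperone of H2A-H2B dimers, was below 0 on every array, at -0.59, -0.19 and -0.46 (mean -0.41 ± 0.20, limma adjusted p = 0.463). The highest were HIF1 (0.13) and the HMG protein gene NHP6A (0.06).

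The 17 measured genes of the SWR1 and INO80 remodellers, which place and remove H2A.Z, had a median of -0.08, with 7 means above and 10 below 0. ARP6 (-0.40) and the bromodomain gene BDF1 (-0.38) were lowest, SWC5 (0.34) and VPS72 (0.21) highest. SWR1 itself was at 0.02 ± 0.17 (SD, n = 3 arrays; limma adjusted p = 0.979). Among 18 genes for enzymes that acetylate, deacetylate, methylate or demethylate histones, the median was -0.09, with 7 means above and 11 below 0. The H3 lysine methyltransferase gene DOT1 (-0.34) and the demethylase gene JHD2 (-0.30) were lowest, and the deacetylase gene SIR2 (0.28) and the acetyltransferase gene SAS2 (0.15) highest. In this list 6 of 18 lay below 0 on all 3 arrays and 3 above, against 16.0% of all features each way. The list medians changed with the scans used. With a value in all 6 scans they were 0.03 for chaperones, 0.0068 for remodellers and 0.0002 for these enzymes. The histone median was then 0.26. On low power scans alone the 3 list medians were -0.0092, 0.05 and -0.0352. Only 4 of 12, 3 of 17 and 4 of 18 genes had low power values on every array, and 0 of 12 regulators.

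**Figure D4:**
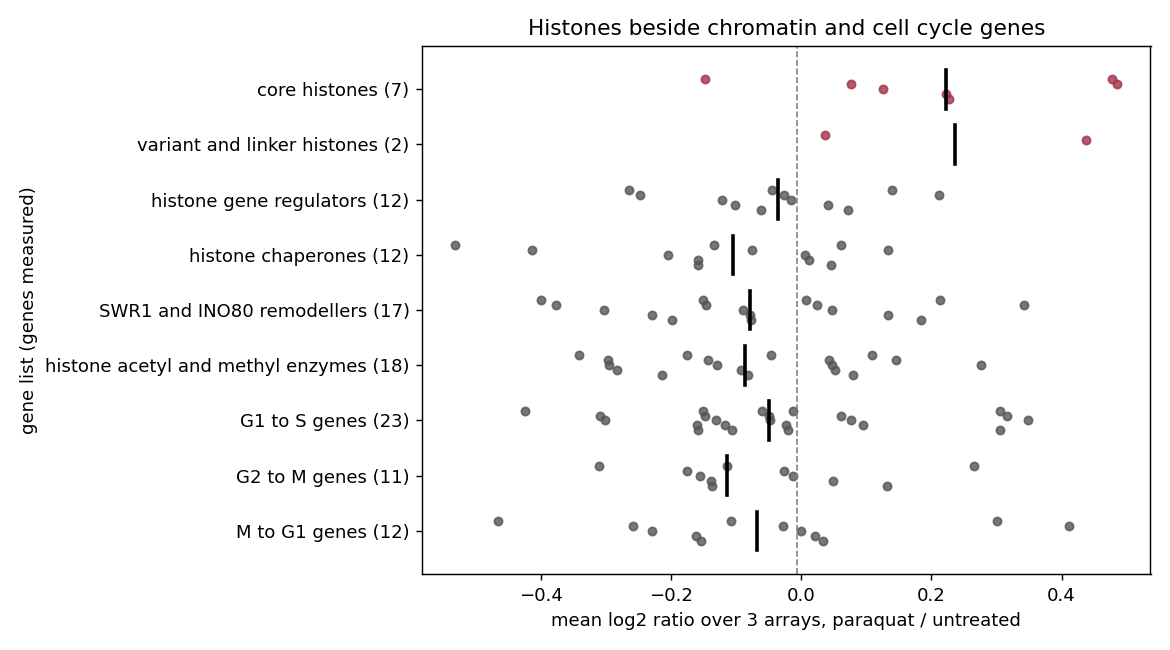
Mean log2 ratio over 3 arrays (x axis) of each measured gene (points) in the histone lists (red) and in the chromatin and cell cycle lists (grey), with a black bar at the list's median and a dashed line at the median of all features. The core histones have a median of 0.22, and the medians of the 7 grey lists lie between -0.11 and -0.04.

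Genes of cell cycle stages were read beside the histones, since histone mRNA belongs to S phase. The 23 measured G1 to S genes had a median of -0.05, with 7 means above and 16 below 0. RFA3 (0.35), a subunit gene of the single-strand binding protein RPA, and the cyclin gene CLN2 (0.32) were highest, and CDC45 (-0.42), for a helicase component, and TOS4 (-0.31) lowest. Their medians were 0.02, 0.15 and -0.18 on replicates 1, 2 and 3, and those of the histone genes 0.23, -0.00039 and 0.11. Replicate 3, which held the highest HTA1 value, had 4 of 23 G1 to S genes above 0, and 7 of 9 histone genes, against 2733 of 5693 features.

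The 11 measured G2 to M genes had a median of -0.11, with 3 means above and 8 below 0. The mitotic cyclin genes CLB2 (-0.31) and CLB1 (-0.18) were lowest, MYO1 (0.27) and BUD4 (0.13) highest. The 12 M to G1 genes had a median of -0.07, with 4 means above and 8 below 0. SIC1 (-0.47), the inhibitor of S phase cyclin kinase, and EGT2 (-0.26) were lowest, and the cyclin gene PCL9 (0.41) and DSE2 (0.30) highest. SIC1 had an unadjusted p under 0.05 (limma adjusted p = 0.441). On replicates 1, 2 and 3 the M to G1 median was 0.09, 0.28 and -0.58 and the G2 to M median 0.02, 0.03 and -0.33, both lowest on replicate 3. The part of culture stage in the histone values was not tested.

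**Figure D5:**
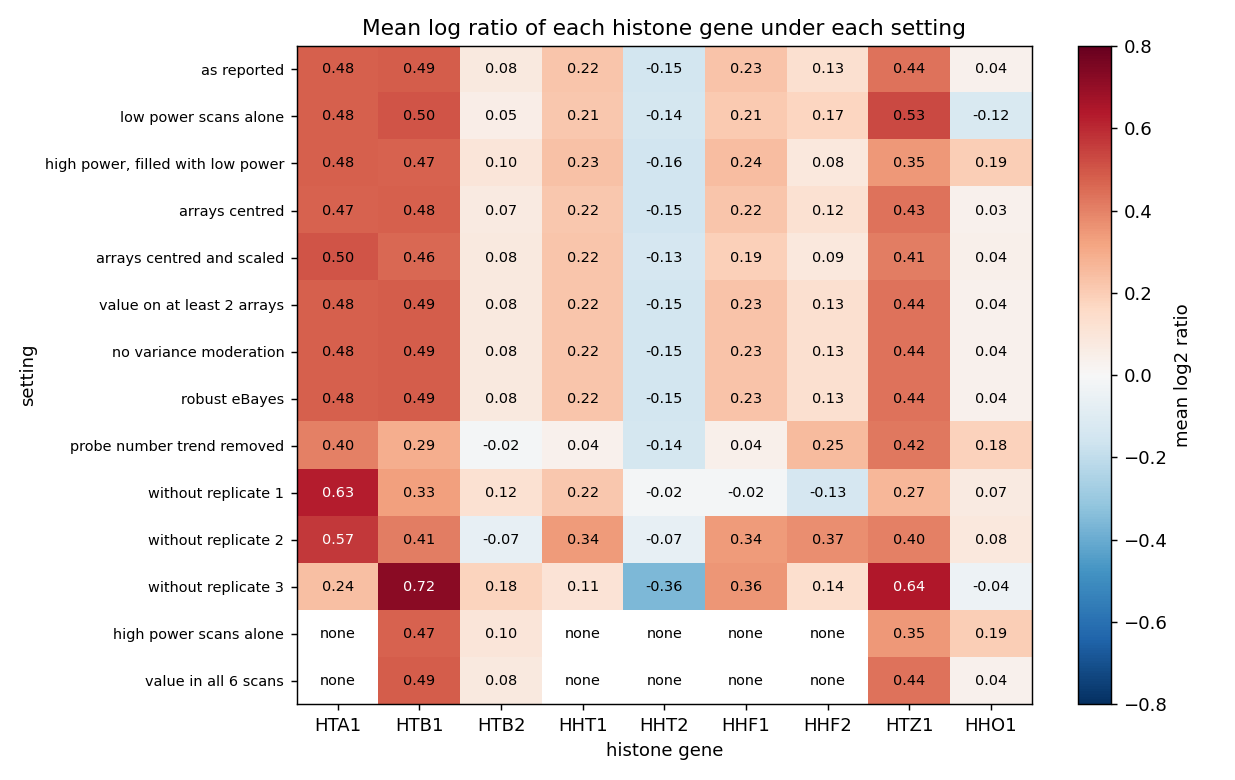
Mean log2 ratio (colour and printed value) of each measured histone gene (columns) as reported and under 13 alternative settings (rows), with none where a gene lacked the scans needed. HTA1, HTB1 and HTZ1 stay between 0.24 and 0.72 wherever they have a value, while HTB2, HHF1, HHF2 and HHO1 turn sign under 1 or 2 settings each.

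The histone values were held against each setting of the processing. HTA1, HTB1, HHT1 and HTZ1 kept a mean above 0 and HHT2 one below 0 in every setting that gave a value, HHT2 and HHT1 by as little as -0.0184 and 0.0372. HTA1, HTB1 and HTZ1 lay above 0 on all 3 arrays, so leaving out an array could not turn their sign. The other filters and variance settings left every mean unchanged and could not turn any sign. The mean ranged from 0.24 to 0.63 for HTA1, from 0.29 to 0.72 for HTB1 and from 0.27 to 0.64 for HTZ1. No histone gene passed a limma adjusted p of 0.05 in any of 107 combinations of gene and setting, the lowest being 0.238 for HTB1 without replicate 3. The number with an unadjusted p under 0.05 fell from 3 to 1 without replicate 1 and without replicate 2, and was 2 without replicate 3. Over all 5693 features it was 613 as reported, and 305, 610 and 607 without replicates 1, 2 and 3. Among histone genes it was 1 with the probe number trend taken out (493 of all features) and 0 without variance moderation (372). With low power filling gaps it was 2 (576 of all features), as with arrays centred and scaled (584). On high power scans alone it was 1 of 4 (557 of 5509 features), and with a value in all 6 scans 2 of 4 (231 of 1794). It stayed at 3 on low power scans alone (239 of 1978 features) and with arrays centred (602 of 5693). It was also 3 with a value on at least 2 arrays (636 of 5966 features) and with robust variances (607 of 5693).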

How the data were processed

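The values deposited by the authors hold 1 log ratio per probe and scan, taken as log2. Per the labels the authors normalized spots with flag 0 by LOWESS; for scanner and spot software, the sources used here name none. The authors' merged column was not used here.

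Probes were named by the platform annotation, with symbols updated by gene identifier through RefSeq assembly R64, which also gave chromosomes and neighbouring genes (5508 of 5513 named probes matched; 1399 had no name). Probes without any value were dropped (761) and identical ones merged. The high and low scan of an array were averaged. In R 4.3.3, limma 3.58.1 tested the mean of 3 arrays against 0 on 5693 features (lmFit, eBayes, two-sided, 2 residual and 19.1 prior degrees of freedom), and the code was checked on simulated data. The number of arrays limits the precision (median standard error per feature 0.201), and so does their weak agreement. Across features, replicate 1 correlated with replicate 2 at r = 0.164 and with replicate 3 at r = 0.217. For replicate 2 against replicate 3, r was only 0.0254. Taking out the probe number trend removed 14.4% of the variance from replicate 1, 18.8% from replicate 2 and 10.0% from replicate 3. Lists are described by counts and medians, with no test.

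Named were all members, 11 fixed chromatin genes, the 2 highest and 2 lowest of each other list, called features and the 5 genes nearest to the median core profile. The members and lists were chosen with earlier results of these data known. Alternatives were single scans, filling, centring, scaling, other filters and variances, the additive effects of the 4 parts of each probe number taken out, and leaving out each array.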

Additional observations from a re-analysis of the deposited data

How the results depend on the processing

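Of 107 combinations of histone gene and setting under 13 alternatives, 101 kept the direction and stayed short of the threshold and 6 turned the sign. Asking for a value on at least 2 arrays or in all 6 scans, and both variance settings, left each mean unchanged. Those settings could not turn a sign. HTB2 was at -0.0155 with the probe number trend removed and ranged from -0.0665 to 0.175 with 1 array left out, HHF1 from -0.0155 to 0.355, HHF2 from -0.132 to 0.374 and HHO1 from -0.0431 to 0.0824. HHO1 was also at -0.122 on low power scans alone. Of 9 histone genes, 8 lay above 0, and 6 without replicate 1, 7 on low power scans alone, with the trend removed and without replicate 2 or 3, and 4 of 4 on high power scans alone and with a value in all 6 scans, where the other 5 lacked a high power value on replicate 1. The median of the histone genes, 0.22, ranged from 0.12 to 0.34 with 1 array left out, the latter without replicate 2. The 2 calls over all features became 0 on high power scans alone, with low power filling gaps, with arrays centred, centred and scaled, and without variance moderation, 1 with the trend removed, 6 with a value on at least 2 arrays or robust variances, 18 on low power scans alone and 19 with a value in all 6 scans, and ranged from 0 to 69 with 1 array left out; the cause was not tested, except that the last 2 scan settings tested fewer features. On high power scans alone the H2A-H2B and H3-H4 genes could not be compared. Each ratio already sets treated against control within 1 array, so no replicate block was added. No spot intensities were used here, so signal over background is unknown.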
